A study of Mus musculus with 8 samples.

Results

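The genes described here are the hepcidin and iron handling genes of mouse liver, 10 genes of the 52636 in each count table. They were chosen by name for their place in iron metabolism and were matched to the tables through their Ensembl identifiers on GRCm38. They comprise the hormone genes Hamp and Hamp2, the plasma carrier Trf with the receptors Tfrc and Tfr2, the storage proteins Fth1 and Ftl1, the transporters Slc40a1 and Slc11a2, and the ferroxidase Cp. Livers came from 8 wild-type male C57BL/6J mice, of which 4 received AAV8-TBG-GFP (AAV8-GFP) and 4 received AAV8-TBG-AGXT (AAV8-AGXT). The AAV8 capsid, from an adeno-associated virus, reaches the liver, TBG is a promoter active in hepatocytes, and the AGXT it drove was the human gene for a peroxisomal enzyme that removes glyoxylate, the precursor of oxalate. All 8 mice were injected at 7 weeks of age. From 8 weeks of age they were fed for 24 weeks the MASH diet, which induces steatohepatitis and is rich in fat, fructose and cholesterol. Every value below thus describes a liver after that diet, whatever its degree of disease, and none describes a liver on chow. The comparison asks how the iron genes of these livers differed between mice overexpressing AGXT and mice given the control virus. The animal numbers 303, 311, 314 and 315 denote controls given AAV8-GFP, and 308, 309, 316 and 319 denote mice given AAV8-AGXT.

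The liver stores iron and sets how much of it circulates. Hepatocytes secrete hepcidin, the product of Hamp, which binds the iron exporter ferroportin (Slc40a1) on gut cells and macrophages and has it degraded, so that less iron enters plasma. Hepcidin transcription follows iron through BMP6 and BMP2, which signal through SMAD proteins, and follows inflammation through IL-6 and STAT3. Inside cells, iron regulatory proteins bind hairpins called iron-responsive elements in the untranslated ends of messenger RNAs. When iron is scarce, binding in a 3′ UTR steadies the message and binding in a 5′ UTR blocks its translation. A measurement of messenger RNA can therefore register the first kind of control and is largely blind to the second.

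A search of the annotated untranslated regions for the hairpin core found iron-responsive elements in 5 of the 10 genes, and these are shown because they are the sites through which iron is known to act on these messages. The search required the letters CNNNNNCAGTGN with 5 paired bases between the bulged C and the loop, on the transcript strand. Each element is printed 5′ to 3′ as 30 bases of the GRCm38 transcript strand, and capitals mark the bulged C and the loop. In Tfrc, which encodes the transferrin receptor, 4 elements lay in the 3′ UTR on the plus strand of chromosome 16, and their loops differed only in the last base.
Tfrc element 1 (chr16:32631219-32631248): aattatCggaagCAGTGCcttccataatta
Tfrc element 2 (chr16:32631598-32631627): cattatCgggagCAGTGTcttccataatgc
Tfrc element 3 (chr16:32631663-32631692): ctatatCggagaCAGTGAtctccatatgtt
Tfrc element 4 (chr16:32631710-32631739): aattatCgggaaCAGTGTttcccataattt
The ferritin chains and the exporter held 1 element each in the 5′ UTR.
Fth1 (chr19:9982732-9982761, plus strand): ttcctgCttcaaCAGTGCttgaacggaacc
Ftl1 (chr7:45459778-45459807, minus strand): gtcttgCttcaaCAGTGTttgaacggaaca
Slc40a1 (chr1:45925464-45925493, minus strand): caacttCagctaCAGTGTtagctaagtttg
The importer Slc11a2 held 1 element in its 3′ UTR, which matched only when 1 base of the 3′ arm was allowed to stay unpaired.
Slc11a2 (chr15:100395152-100395181, minus strand): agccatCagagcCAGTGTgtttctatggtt
Of 21877 coding genes scanned in the same way, 0.366% held such an element in the 5′ UTR and 1.63% in the 3′ UTR. Hamp, Hamp2, Tfr2, Trf and Cp held no match to this pattern.

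Per mouse, 17095433 to 28780140 read pairs were counted on genes. Counts were scaled to CPM (counts per 1e6 counted pairs) with TMM factors and tested with edgeR's quasi-likelihood test, and calls were made at an adjusted p under 0.05 over the 15248 genes that passed the low-count filter. In this comparison 2.45% of tested genes were called higher in livers from mice overexpressing AGXT, 1.90% were called lower and 4.35% were called in either direction. The groups did not overlap, in either direction, for 16.6% of tested genes. TMM placed the median log2 fold change of all tested genes at 0.02, whereas scaling by total counts placed it at -0.22, so changes are given relative to the TMM scale and genes whose direction turned under total counts are named. Mouse 308 stood apart in library make-up, with 56.3% of its tallied read pairs on genes where the other mice had 62.4% to 69.1%. Mouse Agxt, which part of the human transgene's reads could reach, averaged 164 ± 15.8 CPM (SD, n = 4) in controls and 305 ± 98.3 CPM (SD, n = 4) with AAV8-AGXT, a log2 fold change of 0.90 ± 0.22 (SE; adjusted p = 0.0489), and the groups did not overlap. This call lay at the threshold: it was kept only without mouse 309 when 1 mouse was left out (adjusted p 0.0316 to 0.146), and it was lost with limma-voom (0.0524), DESeq2's size factors (0.0502), total counts (0.0566) and at least 10 counts in every mouse (0.0527).

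None of the hepcidin and iron handling genes was called between the groups by this test, where 4.35% of all tested genes were. For so few genes, a lack of calls does not show a lack of change. Of the 10 genes, 9 were tested, with 0 called higher and 0 called lower, 3 at an unadjusted p under 0.05 (Tfr2, Slc11a2 and Cp), where 26.2% of all tested genes were, and a median log2 fold change of -0.01, where the median of all tested genes was 0.02. The Wald test of DESeq2 called 1 of them, Tfr2, and limma-voom called 0. Of the 16225 genes that DESeq2 tested, it called 1068 higher and 1033 lower, a larger share than that of edgeR. The groups did not overlap for 1 of the 9, again Tfr2. Hamp2 did not pass the low-count filter. Mice of 1 group spread widely for some of these genes, so the interval of each difference is given beside it. In a bulk liver sample, fewer cells of a type and less RNA per cell cannot be told apart.

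**Figure D1:**
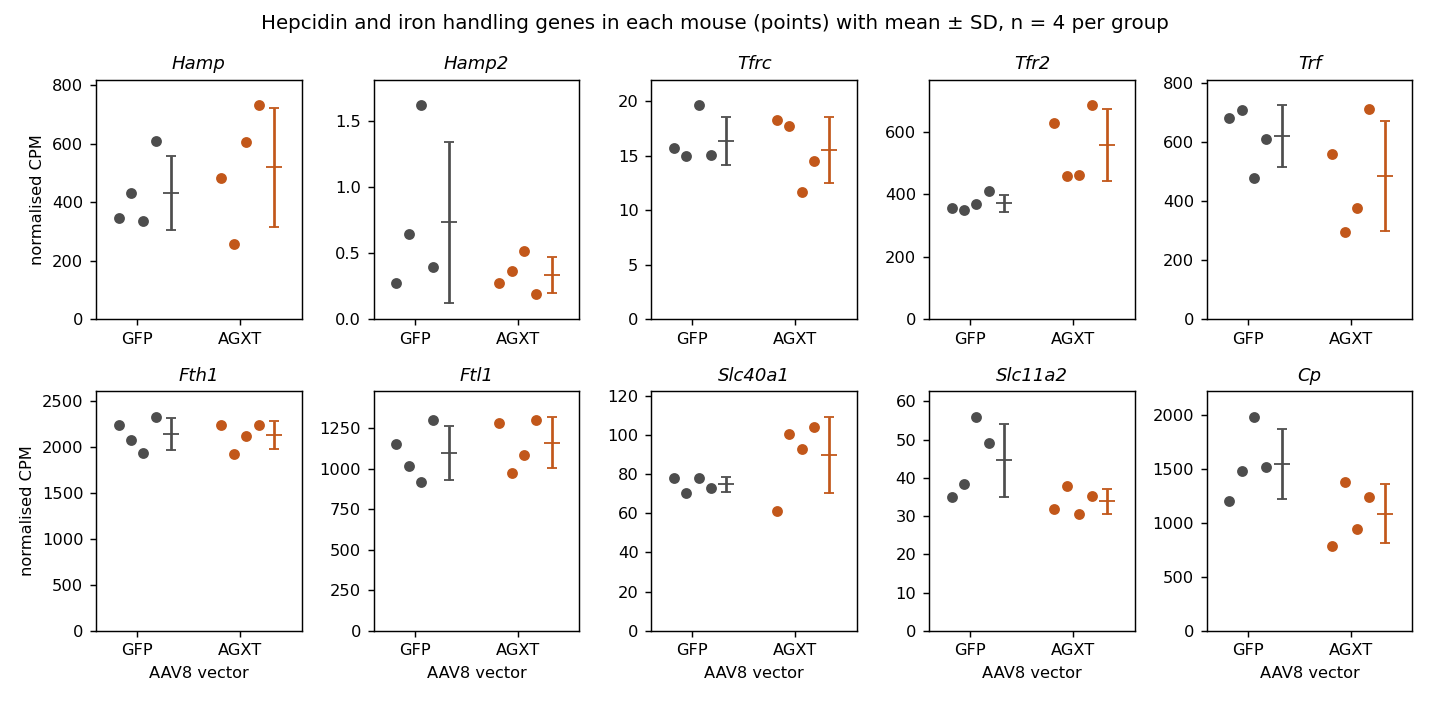
Normalised CPM (vertical axes, each starting at 0) of the 10 genes in every mouse, with AAV8-GFP mice in grey and AAV8-AGXT mice in orange, and with the mean ± SD of the 4 mice beside the points. The groups are apart only for Tfr2, where the highest AAV8-GFP mouse had 410 CPM and the lowest AAV8-AGXT mouse 459 CPM.

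The messages differed greatly in abundance, which can be compared between genes only per length. How read pairs in exon bases shared with another gene were counted is not known, so the length used was that of the unshared bases. Per kilobase of unshared exon, Ftl1 was at 1255 ± 191 CPM and Hamp at 1050 ± 308 CPM in AAV8-GFP mice (SD, n = 4 each), and the ranges of these neighbours overlapped. Fth1 at 619 ± 50.3 CPM and Trf at 511 ± 85.7 CPM per kilobase came next and also overlapped with each other. Cp followed at 163 ± 34.1 CPM and Tfr2 at 85.5 ± 6.28 CPM per kilobase, each clear of its neighbours. Slc40a1 (8.32 ± 0.41 CPM) and Slc11a2 (7.49 ± 1.62 CPM) overlapped, as did Tfrc (2.64 ± 0.35 CPM) and Hamp2 (1.48 ± 1.23 CPM per kilobase). In AAV8-AGXT mice the order of the means was the same except that Tfr2, at 129 ± 26.4 CPM, stood above Cp, at 115 ± 28.7 CPM per kilobase, and the ranges of those 2 genes overlapped. Over all exon bases, a length chosen after the data were seen, Ftl1 had 820 and 866 CPM per kilobase in the AAV8-GFP and AAV8-AGXT groups, below Hamp. Trf had 187 and 146 CPM per kilobase, so the places of Ftl1 and Trf depend on this choice. Both lengths pool the exons of all annotated transcripts of a gene. Fth1 has 3469 exon bases but a longest coding transcript of 1494 bases. The same lengths are 9000 and 3370 for Slc40a1, 9566 and 4564 for Cp, and 410 and 410 for Hamp. Levels per transcript length were not computed, so the order holds only for exon length. Tfr2, the receptor made chiefly by hepatocytes, thus had many times the level of the widely expressed receptor Tfrc in both groups.

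**Figure D2:**
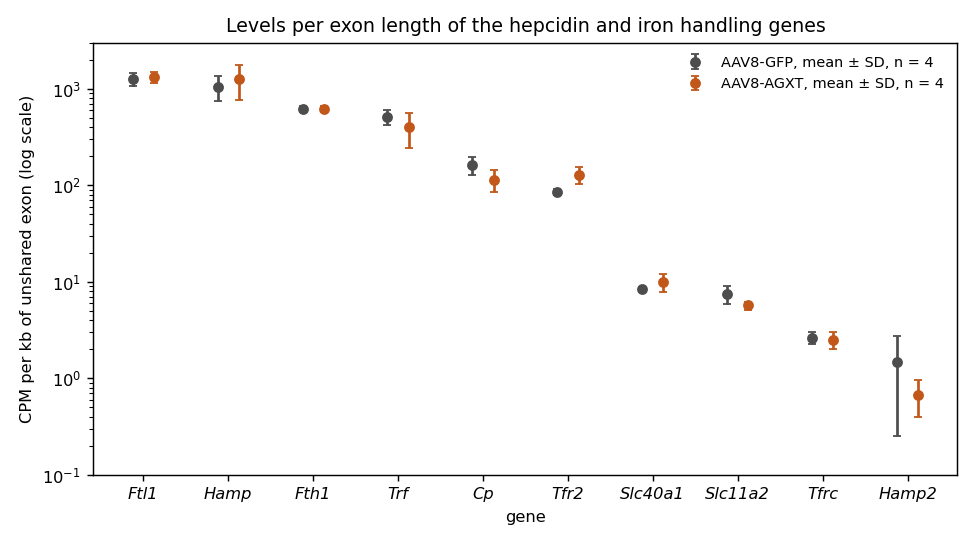
Level of each gene per kilobase of unshared exon, in CPM on a log axis, as mean ± SD of the 4 mice of each group. The genes run from Ftl1, at 1255 CPM per kilobase in AAV8-GFP mice, to Hamp2, at 1.48 CPM per kilobase, and Tfr2 and Cp exchange places between the groups.

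Hamp (chr7:30942368-30944032, minus strand, ENSMUSG00000050440) encodes hepcidin and was abundant and variable. AAV8-GFP mice 303, 311, 314 and 315 had 345, 433, 337 and 609 CPM, and AAV8-AGXT mice 308, 309, 316 and 319 had 482, 256, 606 and 731 CPM. Both the lowest and the highest value belonged to mice overexpressing AGXT, and the groups overlapped over most of their range. The means were 431 ± 126 CPM and 519 ± 203 CPM (SD over 4 mice), a log2 fold change of 0.27 (95% interval -0.41 to 0.95, adjusted p = 0.615). The interval spans 0 widely, so a change of a size within it was not detectable among these mice. The size of the estimate rested on single mice: it was 0.06 without mouse 319, 0.15 without 314, 0.18 without 303, 0.48 without 309 and 0.49 without 315, and it was 0.03 under total counts, and none of these fits called it. Among the 8 mice, the highest Hamp value was 2.86 times the lowest.

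Hamp2 (chr7:30922372-30924681, minus strand, ENSMUSG00000056978), the neighbouring copy, was close to the limit of detection. Its counts were 7, 21, 35 and 9 in the AAV8-GFP mice and 4, 6, 10 and 4 in the AAV8-AGXT mice, in the order of animal numbers given above. In CPM these were 0.73 ± 0.61 (SD, n = 4) and 0.33 ± 0.14 (SD, n = 4), and the groups overlapped. A fit without the low-count filter gave a log2 fold change of -1.11 ± 0.58 (SE; adjusted p = 0.348). The transcripts of Hamp and Hamp2 were 88.8% identical over their aligned length, and 23 of the 344 stretches of 67 bases in Hamp (6.69%) occurred in Hamp2 as well. Hamp had 4255 to 15492 counts per mouse, so a very small share of Hamp reads placed on Hamp2 would be enough to supply the Hamp2 counts, which are therefore uncertain, whereas Hamp2 reads could add little to Hamp.

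The promoters of these copies are shown because Hamp and Hamp2 differed so widely in level while their upstream sequences were nearly alike. The 250 bases before each RefSeq start (GRCm38.p6, minus strand of chromosome 7, printed 5′ to 3′) were 89.7% identical. The span of Hamp2 used for counting, given above, reaches position 30924681. The whole Hamp2 window therefore lies inside that span, and the RefSeq start differs from the start annotated there. Capitals mark GGCGCC, the core of the BMP-responsive element, and TTCNNNGAA, a STAT site. Both patterns read the same on either strand, and the windows were searched on both.
Hamp (chr7:30944030-30944279): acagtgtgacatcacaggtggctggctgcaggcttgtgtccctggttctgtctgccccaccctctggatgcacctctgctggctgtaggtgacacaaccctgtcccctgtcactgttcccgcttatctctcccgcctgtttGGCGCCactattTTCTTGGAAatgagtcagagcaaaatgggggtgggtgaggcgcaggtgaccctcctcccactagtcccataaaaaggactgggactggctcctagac
Hamp2 (chr7:30924182-30924431): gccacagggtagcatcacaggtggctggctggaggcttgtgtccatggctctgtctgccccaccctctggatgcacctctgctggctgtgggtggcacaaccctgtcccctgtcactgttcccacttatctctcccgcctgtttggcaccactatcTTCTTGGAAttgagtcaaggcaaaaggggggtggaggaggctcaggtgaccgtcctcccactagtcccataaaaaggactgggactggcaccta
The Hamp window held 1 GGCGCC, beginning 109 bases before the start, and 1 STAT match, beginning 97 bases before it. The Hamp2 window held 1 STAT match, 94 bases before the start, and 0 matches to GGCGCC. Of 32851 promoter windows of 300 bases, 11.9% held GGCGCC and 8.3% held TTCNNNGAA, so these letters are common and their presence is a description only.

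Trf (chr9:103204001-103230444, minus strand, ENSMUSG00000032554) encodes transferrin, the iron carrier of plasma, which hepatocytes secrete. It measured 681, 709, 476 and 610 CPM in the AAV8-GFP mice and 559, 293, 375 and 711 CPM in the AAV8-AGXT mice. Mice 309 and 316 were below every AAV8-GFP mouse, whereas mouse 319 was the highest of all 8. The difference was within the spread between mice (log2 fold change -0.35, 95% interval -0.94 to 0.23, adjusted p = 0.419). Trf was at -0.20 without mouse 309 and at -0.59 without mouse 319, and at -0.62 under total counts, with no call. Trf shares 2108 exon bases with the annotated read-through gene Gm20425, which had 0 counts in all mice, and 79% of the 67-base stretches of Trf occur there. Read pairs in the shared part may have been set aside as ambiguous, which would lower the Trf count in every mouse.

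Tfr2 (chr5:137569840-137587481, plus strand, ENSMUSG00000029716) encodes transferrin receptor 2, through which hepatocytes sense iron-loaded transferrin. It showed the largest difference of the 9 tested genes. AAV8-GFP mice 303, 311, 314 and 315 had 355, 351, 367 and 410 CPM, and AAV8-AGXT mice 308, 309, 316 and 319 had 626, 459, 462 and 684 CPM. All 4 values of mice overexpressing AGXT were above all 4 of the controls, and they were also more spread out. The means were 371 ± 27.2 CPM (SD, n = 4) and 558 ± 115 CPM (SD, n = 4), a log2 fold change of 0.59 (95% interval 0.24 to 0.94) that missed the threshold in edgeR (adjusted p = 0.0656) and passed it in DESeq2 (adjusted p = 0.00639). Without each mouse in turn, the log2 fold change ranged from 0.48 to 0.67, the adjusted p ranged from 0.0503 to 0.194, and under total counts the values were 0.34 and 0.0926, so the direction held in every one of these fits and the call in none of them. The summed level of 8 hepatocyte markers, of which edgeR called 2 higher (Cps1 and Serpina1e), was 51500 to 62780 CPM in AAV8-GFP mice and 62430 to 85920 CPM in AAV8-AGXT mice, and its part in the Tfr2 difference was not tested.

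Tfrc (chr16:32608920-32632794, plus strand, ENSMUSG00000022797) encodes transferrin receptor 1, which carries iron-loaded transferrin into cells and whose message is steadied through the 3′ elements printed above. It measured 15.7, 15.0, 19.6 and 15.1 CPM in the AAV8-GFP mice and 18.2, 17.7, 11.7 and 14.5 CPM in the AAV8-AGXT mice. Mice 308 and 309 lay within the range of the controls, and mice 316 and 319 lay below it. No difference between the groups was detectable (log2 fold change -0.08, 95% interval -0.44 to 0.29, adjusted p = 0.803), and the sign turned, to 0.04, without mouse 316.

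Fth1 (chr19:9980598-9985098, plus strand, ENSMUSG00000024661) encodes the ferritin heavy chain, which oxidises iron for storage, and had the smallest ratio of highest to lowest value over the 8 mice among the 10 genes, 1.21. It measured 2240, 2082, 1935 and 2330 CPM in the AAV8-GFP mice and 2246, 1925, 2122 and 2243 CPM in the AAV8-AGXT mice. The groups covered nearly the same range, and their means were 2147 ± 174 CPM (SD, n = 4) and 2134 ± 151 CPM (SD, n = 4). The log2 fold change was -0.01 (95% interval -0.30 to 0.28, adjusted p = 0.977), and its sign turned without mouse 303, 309 or 315, when it was 0.01, 0.02 and 0.04.

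Ftl1 (chr7:45457944-45459884, minus strand, ENSMUSG00000050708) encodes the ferritin light chain, which helps to mineralise the stored iron. It measured 1154, 1018, 920 and 1304 CPM in the AAV8-GFP mice and 1284, 974, 1084 and 1301 CPM in the AAV8-AGXT mice, with full overlap. Its log2 fold change was 0.08 (95% interval -0.27 to 0.43, adjusted p = 0.790), and the sign turned under total counts, to -0.16. Of the 67-base stretches of Ftl1, 72.8% occur in 6 other genes, chiefly Ftl1-ps1, which had 337 to 962 counts per mouse, so Ftl1 counts are uncertain where read pairs aligned to several places were left out. Other named ferritin copies had few counts, with at most 55 in a mouse for Ftl2-ps, 20 for Ftl1-ps2 and 2 for Fth-ps2 and Fth-ps3, and 0 for the Fthl17 genes.

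The ferritin chains moved together from mouse to mouse. Over the 8 mice, log2 CPM of Fth1 and Ftl1 had a Pearson r of 0.94 and a Spearman rho of 0.95, a description of points that share libraries and scaling. The ratio of Fth1 to Ftl1 counts within a library removes that scaling, and it ran from 1.786 to 2.104 in AAV8-GFP mice and from 1.72 to 1.98 in AAV8-AGXT mice. The log2 difference of -0.09 between groups was within the spread (two-sided exact permutation test over 70 arrangements, p = 0.229, adjusted p = 0.343 over 3 ratios). The ratio of Tfrc to Fth1, whose messages carry iron-responsive elements at opposite ends, differed by -0.08 on the log2 scale (exact permutation test, p = 0.743, adjusted p = 0.743). The ratio of Tfr2 to Tfrc ran from 18.7 to 27.2 in AAV8-GFP mice and from 26.0 to 47.0 in AAV8-AGXT mice, a log2 difference of 0.66 (exact permutation test, p = 0.0571, adjusted p = 0.171). These ratios were chosen after the values were seen, and the smallest p that 4 mice against 4 allow is 0.0286.

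Slc40a1 (chr1:45908068-45926523, minus strand, ENSMUSG00000025993) encodes ferroportin, the iron exporter that hepcidin removes. It measured 77.9, 70.6, 78.1 and 72.8 CPM in the AAV8-GFP mice, a narrow range, and 61.3, 100, 93.1 and 104 CPM in the AAV8-AGXT mice. Mice 309, 316 and 319 were above every control, and mouse 308 was below every control. The log2 fold change was 0.26 (95% interval -0.09 to 0.61, adjusted p = 0.314). Without mouse 308 it was 0.39 with an adjusted p of 0.0798, still short of the threshold, and under total counts it was 0.04. Ferroportin is abundant in macrophages, and marker lists of these cells moved in different ways. The 8 Kupffer cell markers summed to 456 to 702 CPM in controls and 563 to 1102 CPM with AAV8-AGXT, with 0 called by edgeR or limma-voom, 3 at an unadjusted p under 0.05 in edgeR and a median log2 fold change of 0.37. Of the 8, 6 were fitted higher and 2 lower, Cd5l (-0.02) and Clec1b (-0.22). DESeq2 called 1 of them higher, Timd4, at 0.88 ± 0.42 CPM and 5.002 ± 5.77 CPM (SD, n = 4 each). The groups overlapped for Timd4, and its AAV8-AGXT median was 2.54 CPM, where the highest mouse had 13.6 CPM. Marco, a scavenger receptor of the same list, ranged from 0.55 to 5.65 CPM in controls. With AAV8-AGXT it ranged from 5.94 to 156 CPM, with a median of 11.4 CPM (edgeR adjusted p = 0.0801). Timd4 and Marco are named after their values were seen. The 10 markers of macrophages and recruited macrophages summed to 772 to 1491 CPM and 197 to 780 CPM, with 9 of 10 fitted lower and 1 called lower by edgeR, Cd9, where DESeq2 called 5 lower (Cd68, Cd9, Itgax, Spp1 and Trem2). The 8 stellate cell markers summed to 429 to 703 CPM and 239 to 520 CPM, with 1 called lower by edgeR, Acta2, 2 by DESeq2 (Acta2 and Col1a1) and 0 by limma-voom. The part of these lists in the Slc40a1 values was not tested.

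Slc11a2 (chr15:100387898-100425072, minus strand, ENSMUSG00000023030) encodes the divalent metal transporter that moves iron out of the endosome after transferrin uptake. It measured 34.99, 38.3, 55.9 and 49.0 CPM in the AAV8-GFP mice and 32.0, 37.7, 30.5 and 35.4 CPM in the AAV8-AGXT mice. Control mice 311, 314 and 315 were above every AAV8-AGXT mouse, whereas mouse 303 lay within the AAV8-AGXT range. The log2 fold change was -0.39 (95% interval -0.74 to -0.05, adjusted p = 0.143), and total counts gave -0.63 with an adjusted p of 0.0474, the only fit among those tried in which Slc11a2 was called. Slc11a2 shares 402 exon bases with Gm5475 on the other strand, which had 5 counts over all mice.

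Cp (chr3:19957054-20009145, plus strand, ENSMUSG00000003617) encodes ceruloplasmin, the copper ferroxidase of plasma that readies exported iron for transferrin. It measured 1202, 1475, 1979 and 1520 CPM in the AAV8-GFP mice and 782, 1375, 940 and 1239 CPM in the AAV8-AGXT mice. The 2 lowest values of all, in mice 308 and 316, belonged to mice overexpressing AGXT, and the groups overlapped between mouse 303 and mouse 309. The log2 fold change was -0.51 (95% interval -0.99 to -0.03, adjusted p = 0.167), and no fit among those tried called it. Log2 CPM of Cp and Slc11a2 had a Pearson r of 0.89 and a Spearman rho of 0.98 over the 8 mice, again over shared libraries. Cp shares 108 exon bases with Hps3 on the other strand.

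Genes that varied among mice most like Hamp were sought among 13220 tested genes with symbols of their own, by the Pearson r of log2 CPM over the 8 mice. They were Zmat5 (r = 0.97), Tcaf2 (-0.96), Abcg5 (0.96), Fam98b (-0.94) and Zfp157 (-0.94), and none of these was called between groups. For Tfrc they were B3galt6 (0.96), Trarg1 (-0.95), Slc35a1 (0.95), Npat (0.93) and Fip1l1 (0.90), none called. With so many genes and 8 mice these are the extremes of a long list and a description only. Within the iron genes, Hamp had an r of 0.72 with Ftl1, 0.71 with Fth1 and -0.63 with Tfrc.

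The genes that control hepcidin through BMP and SMAD proteins showed no call in either direction. Of 18 listed genes 17 were tested, with 0 called by edgeR, DESeq2 or limma-voom, 2 at an unadjusted p under 0.05 in edgeR (Hfe and Tmprss6), and a median log2 fold change of 0.11. Among the ligands, Bmp6 was 4.29 ± 1.88 CPM and 3.80 ± 1.38 CPM (SD, n = 4 each; adjusted p = 0.795), and Bmp2, made mainly by endothelial cells, was 9.71 ± 2.80 CPM and 11.4 ± 3.63 CPM (adjusted p = 0.612). The 8 sinusoidal endothelial markers, with 0 called by edgeR, DESeq2 or limma-voom and 0 at an unadjusted p under 0.05 in edgeR, summed to 241 to 351 CPM and 219 to 431 CPM. Hfe, which joins Tfr2 in iron sensing, was 51.4 to 54.4 CPM in AAV8-GFP mice and 55.2 to 71.9 CPM in AAV8-AGXT mice, without overlap, a log2 fold change of 0.25 (adjusted p = 0.140). Tmprss6, the protease that cleaves the co-receptor hemojuvelin, had a log2 fold change of 0.33 (adjusted p = 0.165), and Hjv, the gene for hemojuvelin, had 0.18 (adjusted p = 0.533), which turned to -0.07 under total counts. The targets of BMP signalling did not stand apart either, with log2 fold changes of -0.03 for Id1 (adjusted p = 0.942) and 0.11 for Smad7 (adjusted p = 0.725), the latter turning to -0.11 under total counts, as Bmp2 turned from 0.22 to -0.03. Erfe, the erythroid suppressor of hepcidin, had at most 3 counts in a mouse.

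In the IL-6 and STAT3 arm, 6 of 7 genes were tested, with 0 called by edgeR, DESeq2 or limma-voom, 1 at an unadjusted p under 0.05 and a median log2 fold change of 0.08. That gene was Il6ra, the receptor chain that binds IL-6, at 30.5 ± 9.78 CPM in controls and 51.7 ± 15.8 CPM with AAV8-AGXT (SD, n = 4 each). Its groups did not overlap, at a log2 fold change of 0.76 (adjusted p = 0.118). It is named because the count is 1, after its value was seen. Il6 itself had at most 8 counts in a mouse and was not tested.

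**Figure D3:**
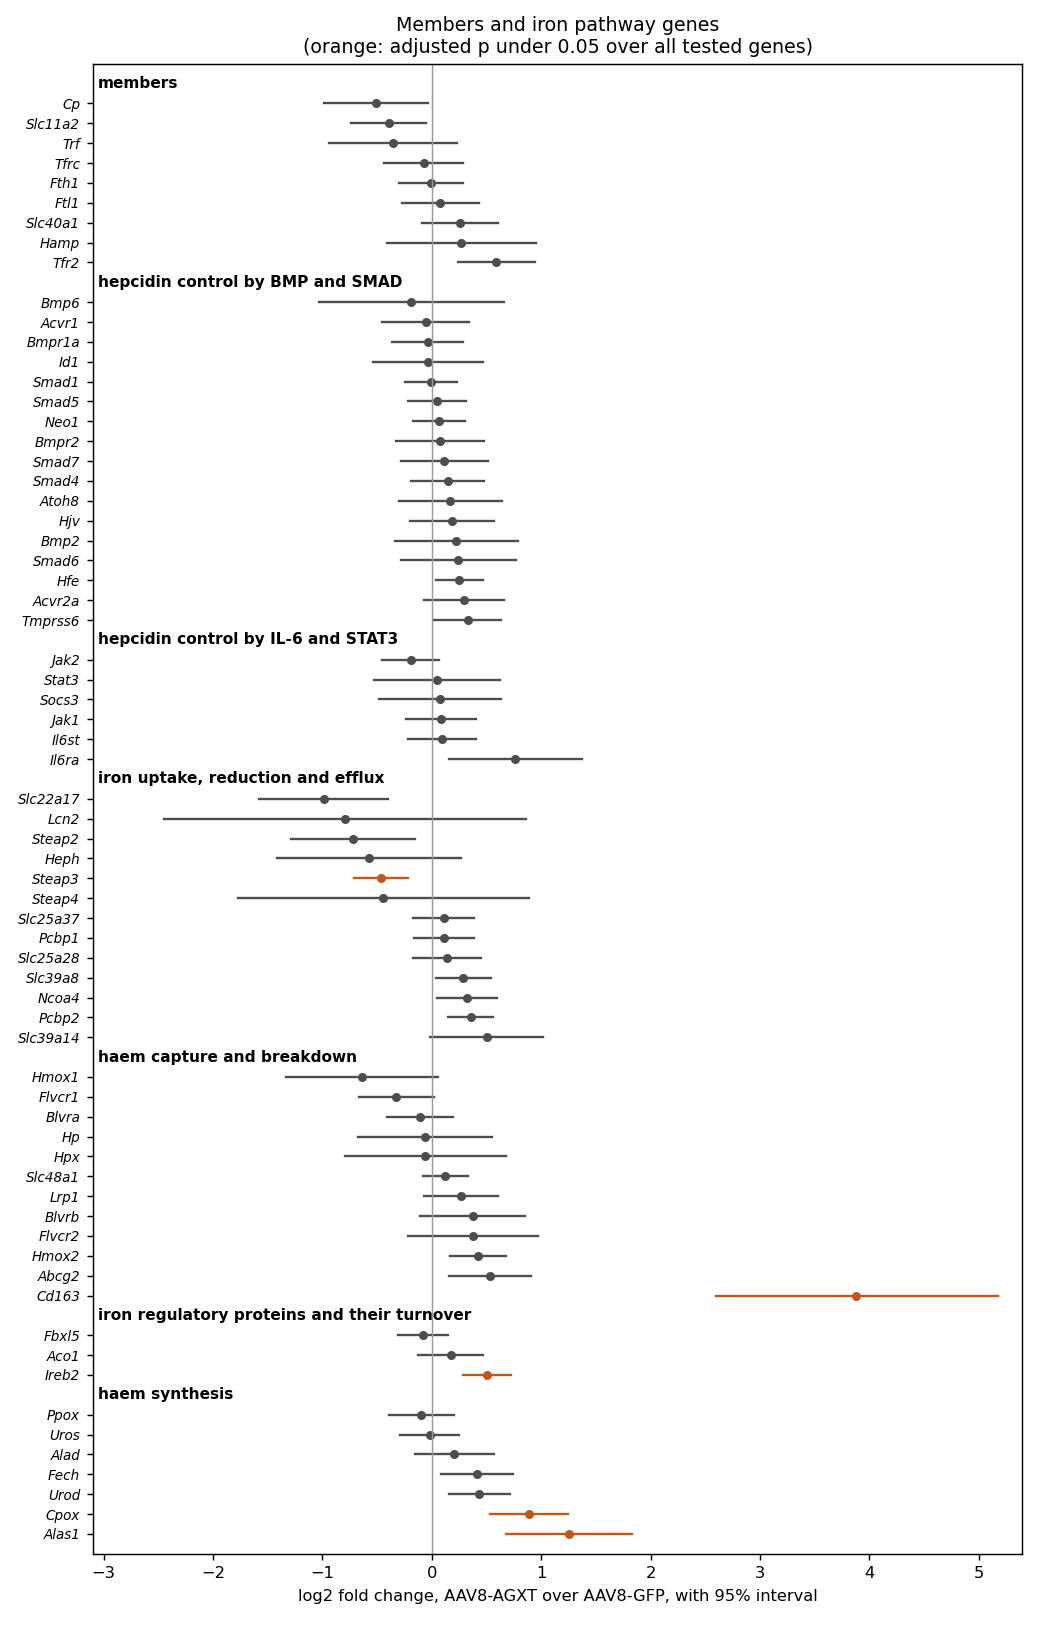
Log2 fold change of AAV8-AGXT over AAV8-GFP (points) with 95% intervals (lines) for the 9 tested hepcidin and iron handling genes, titled members, and for genes of 6 iron pathway lists, with orange for an adjusted p under 0.05. No member is orange, and the orange genes are Steap3 below 0 and Cd163, Ireb2, Cpox and Alas1 above it.

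Over all 7 pathway lists, 75 of 80 genes were tested, 5 were called higher, 1 was called lower and the median log2 fold change was 0.13. The share called, 6 of 75, stands beside 4.35% of all tested genes, and the lists were chosen with earlier results known. Counts in single pathway and marker lists likewise stand beside shares of all tested genes in edgeR. These shares were 2.45% called higher, 1.90% called lower and 26.2% at an unadjusted p under 0.05. These calls depended on single mice. Without mouse 311 or 314, 0 were called higher, without 303 or 308, 2, and without 319, 1. The gene called lower, Steap3, was called without 309 but not without any other mouse. Calls over all tested genes fell as well, from 374 higher and 290 lower with all mice. They were 2 and 0 without 311, 11 and 4 without 314, and 12 and 2 without 319. Without 303 they were 114 and 79, and without 308 they were 86 and 91.

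Among genes of uptake, reduction and efflux, edgeR tested 13 of 16, with 0 called higher and 1 called lower, Steap3, as with limma-voom. The median log2 fold change was 0.11. DESeq2 also called Pcbp2 higher (edgeR adjusted p = 0.0595) and Slc22a17 lower (edgeR adjusted p = 0.0647). Steap3, the endosomal reductase that prepares transferrin iron for transport by Slc11a2, was 41.0, 38.2, 42.4 and 39.7 CPM in the AAV8-GFP mice and 23.8, 31.7, 31.8 and 29.3 CPM in the AAV8-AGXT mice. Every AAV8-AGXT mouse was below every control, and Steap3 fell by 0.47 on the log2 scale (SE 0.11, adjusted p = 0.0465, just inside the threshold). With 1 mouse left out its adjusted p ran from 0.0496, without mouse 309, to 0.146, without mouse 311. The Steap3 call was also lost without the low-count filter (adjusted p = 0.0507). Slc39a14, which takes up iron not bound to transferrin, averaged 225 ± 47.7 CPM and 318 ± 99.2 CPM (SD, n = 4 each), which differed by 0.50 on the log2 scale (adjusted p = 0.205). Ncoa4, which delivers ferritin for breakdown, was 91.3 to 114 CPM in AAV8-GFP mice and 116 to 145 CPM in AAV8-AGXT mice, without overlap (log2 fold change 0.32, adjusted p = 0.136). Cybrd1, Steap1 and Hephl1 had too few counts to be tested by edgeR.

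Among genes of haem capture and breakdown, all 12 were tested, with 1 called higher and 0 lower by edgeR and by limma-voom. The median log2 fold change was 0.20. DESeq2 called 3 higher, Cd163, Hmox2 and Abcg2. The groups did not overlap for Hmox2 (edgeR adjusted p = 0.0662) and Abcg2 (edgeR adjusted p = 0.0882). The gene that edgeR called was Cd163, the macrophage scavenger receptor for haemoglobin bound to haptoglobin. Cd163 measured 1.10 ± 0.39 CPM in controls and 16.2 ± 12.6 CPM with AAV8-AGXT (SD, n = 4 each). It rose by 3.88 ± 0.58 (SE) on the log2 scale (adjusted p = 0.0236), and the call was lost without mouse 311 (adjusted p = 0.115) or 314 (adjusted p = 0.0798). The plasma proteins that bind free haemoglobin and haem were not called. Hp, haptoglobin, had a log2 fold change of -0.06 (95% interval -0.67 to 0.55, adjusted p = 0.911), and Hpx, haemopexin, had -0.06 (-0.80 to 0.68, adjusted p = 0.930), and both changed sign when single mice were left out. Hmox1, the inducible enzyme that opens haem and frees its iron, was 33.2, 42.2, 51.1 and 48.2 CPM in the AAV8-GFP mice and 12.3, 23.7, 33.4 and 42.5 CPM in the AAV8-AGXT mice. Mice 308 and 309 were below every control, but the groups overlapped and the log2 fold change of -0.64 did not pass (95% interval -1.33 to 0.06, adjusted p = 0.227). The sum of macrophage and recruited macrophage markers was lowest in mouse 308 as well, and its part in the Hmox1 values was not tested.

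Of the iron regulatory proteins, Ireb2, which encodes the second of these RNA-binding proteins, rose. It was 41.1, 42.5, 47.7 and 48.8 CPM in the AAV8-GFP mice and 62.1, 71.6, 60.5 and 61.6 CPM in the AAV8-AGXT mice, without overlap. The log2 fold change was 0.51 ± 0.10 (SE; adjusted p = 0.0348), and under total counts it was 0.27 and not called (adjusted p = 0.129). Without each mouse in turn the adjusted p ran from 0.0407 to 0.135, with the call lost without 303, 308, 311, 314 or 319. Aco1, whose protein is an aconitase when it holds an iron-sulphur cluster and binds iron-responsive elements when it does not, had a log2 fold change of 0.17 (adjusted p = 0.440) and -0.06 under total counts. Fbxl5, the third gene of this list and the adaptor for breakdown of the Ireb2 protein, was not called. The genes in which the search found iron-responsive elements, Tfrc, Fth1, Ftl1, Slc40a1 and Slc11a2, had the values given above. Those counts pool all transcripts of a gene, with or without an element, and binding was not measured.

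Of the 7 pathway lists, the one with the highest median was haem synthesis, a main use of iron in a hepatocyte besides storage and iron-sulphur clusters. All 8 enzymes were tested, 2 were called higher and 0 lower, and 6 were fitted higher and 2 lower. Of all tested genes, 2.45% were called higher and 1.90% lower. The median log2 fold change of the enzymes was 0.33, where the median of all tested genes was 0.02. Alas1, which makes aminolaevulinic acid and limits the rate of haem synthesis in liver, was 608, 691, 540 and 325 CPM in the AAV8-GFP mice and 928, 1492, 1093 and 1656 CPM in the AAV8-AGXT mice. The lowest mouse overexpressing AGXT was above the highest control, and Alas1 rose by 1.26 on the log2 scale (SE 0.26, adjusted p = 0.0366). Cpox, coproporphyrinogen oxidase, was 122, 82.5, 98.9 and 79.2 CPM in the AAV8-GFP mice and 188, 200, 145 and 175 CPM in the AAV8-AGXT mice. Again the groups were apart, and Cpox rose by 0.89 (SE 0.16, adjusted p = 0.0312). Without each mouse in turn, Alas1 kept a log2 fold change of 1.08 to 1.38 and Cpox of 0.80 to 1.03. The Alas1 call was lost without 303, 309, 311, 314 or 319 and the Cpox call without 308, 311, 314 or 319, with adjusted p up to 0.124 and 0.126. Under total counts Alas1 missed the threshold (1.01, adjusted p = 0.0547) and Cpox passed it (0.64, adjusted p = 0.0473).

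**Figure D4:**
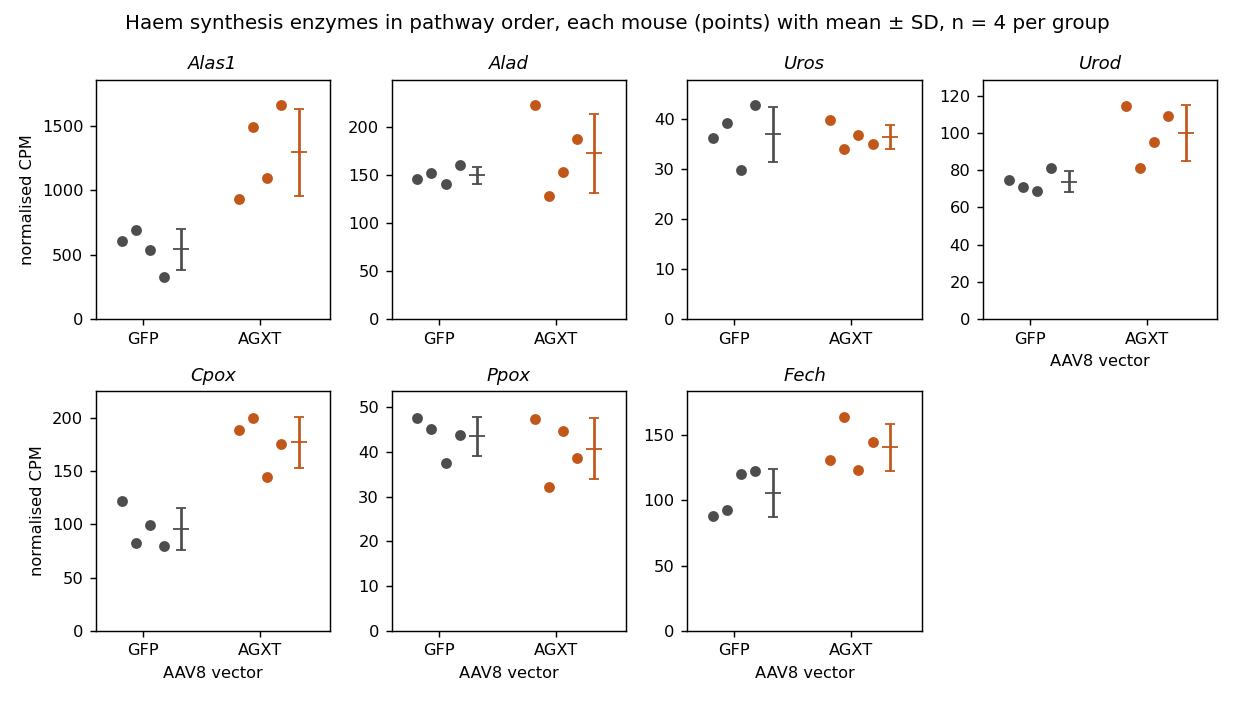
Normalised CPM (vertical axes, each starting at 0) of 7 haem synthesis enzymes in pathway order, in every mouse, with AAV8-GFP mice in grey, AAV8-AGXT mice in orange and the mean ± SD of 4 mice beside the points. The groups are apart for Alas1, Cpox and Fech, with the lowest AAV8-AGXT and highest AAV8-GFP mouse at 123.2 and 122.6 CPM for Fech.

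No other enzyme of the list passed the test. Fech, ferrochelatase, which sets iron into the porphyrin ring, averaged 106 ± 18.2 CPM and 141 ± 17.9 CPM (SD, n = 4 each) and differed by 0.41 on the log2 scale (adjusted p = 0.116), with groups that only just failed to overlap. Urod had a log2 fold change of 0.43 (adjusted p = 0.0732) and was called by DESeq2. Alad had 0.21 (adjusted p = 0.449), Uros -0.02 (adjusted p = 0.936) and Ppox -0.10 (adjusted p = 0.691). The erythroid form of the first enzyme, Alas2, and the globins belong to a list of 8 erythroid and blood markers, of which 5 were tested, with 0 called by edgeR or limma-voom, 2 at an unadjusted p under 0.05 in edgeR and a median log2 fold change of 0.57. DESeq2 called 1 of them higher, Alas2, at 36.1 ± 11.5 CPM in controls and 55.2 ± 8.84 CPM with AAV8-AGXT (SD, n = 4 each; edgeR adjusted p = 0.0976). The list summed to 86.5 to 145 CPM in controls and 115 to 303 CPM with AAV8-AGXT. The hepatocyte markers had a median log2 fold change of 0.40, above that of the enzymes. The part of either list in the enzyme values was not tested.

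In iron-sulphur cluster assembly, all 16 genes were tested, with 1 called higher and 0 lower by edgeR and by limma-voom. The median log2 fold change was 0.19, with 13 fitted higher and 3 lower. DESeq2 also called Hspa9 higher (edgeR adjusted p = 0.109). The gene that edgeR called, Isca1, which matures mitochondrial clusters, averaged 46.3 ± 4.87 CPM and 61.4 ± 1.66 CPM (SD, n = 4 each). Isca1 rose by 0.41 ± 0.10 (SE) on the log2 scale (edgeR adjusted p = 0.0465). The call was lost when any 1 mouse was left out (adjusted p 0.0563 to 0.164) and under total counts (0.17, adjusted p = 0.274). It was also lost without the low-count filter (adjusted p = 0.0781) and with at least 10 counts in every mouse (adjusted p = 0.0528). Isca1 shares 314 exon bases with Etohd2 on the other strand, which had 882 counts over all mice, so its count is uncertain to that extent. Under total counts, the medians of 6 lists moved from above 0 to -0.11 for BMP and SMAD, -0.15 for IL-6 and STAT3, -0.13 for uptake and efflux, -0.04 for haem capture, -0.06 for iron regulatory proteins and -0.05 for cluster assembly, and that of haem synthesis moved to 0.10, beside a median of -0.22 over all tested genes on that scale.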

How the data were processed

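Liver RNA of 8 mice was sequenced as stranded mRNA libraries, 1 for each animal. Per the labels and methods, the authors' steps were quality checks (FastQC 0.11.8), trimming (Trimmomatic 0.35), mapping to GRCm38 (HISAT2) and counting on genes (HTSeq), and they deposited raw, unnormalised counts of read pairs per Ensembl gene. The strand setting of the counting is not given in the sources used here, so genes that overlap on opposite strands are uncertain. Read pairs aligned to several places, 17.4% to 23.4% of the tallies, entered no gene, which lowers genes with close copies. HTSeq's tallies of pairs on no gene were kept out of library sizes and tests. Mice were grouped by the treatment in the labels, and none was left out. The p-values judge a difference between groups against the spread between mice, with 4 mice per group.

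Of 52636 genes, 52489 matched GENCODE M21 on the same build, which gave symbols, positions and untranslated regions. Promoter sequences are RefSeq's, with both hepcidin genes matched. The main test was edgeR 4.0.16 (R 4.3.3) with filterByExpr, TMM factors, a quasi-likelihood fit on treatment alone and adjustment by Benjamini and Hochberg over 15248 genes, of which 3988 had an unadjusted p under 0.05. Intervals are 95% intervals of the unshrunken coefficient. CPM carry TMM factors; a prior count of 2 was added for log2 CPM. The common biological coefficient of variation was 23.3%, so spread between mice and not counting error limits all but the scarcest genes, where 3 counts correspond to 0.0918 to 0.207 CPM. Alternatives were DESeq2 1.42.0, limma-voom (limma 3.58.1), DESeq2's size factors, total counts, no filter, at least 10 counts in every mouse, robust estimation and each mouse left out. Scripts were tested on simulated counts. Within-library ratios were tested by exact permutation in Python 3.11.15 with scipy 1.17.1.

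The iron genes, the lists and the markers were chosen with earlier results of these data known. Named were the 10 genes, 15 fixed regulators and carriers, copies of the ferritin and hepcidin genes, the 5 genes most like Hamp and Tfrc, and Agxt. Every gene of a pathway list called by edgeR (at most 6 per direction) or by DESeq2 was named as well. Counts and medians cover whole lists, including genes that are not reported singly.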

Additional observations from a re-analysis of the deposited data

Results flagged for a closer look

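In 5 of 70 groups of 4 mice (35 genes named in the report), 1 mouse lay farther from the others than the 95% critical value of Dixon's gap test, and chance flags about 1 group in 20. Tfrc was 19.6 CPM in AAV8-GFP mouse 314 and 15.0 to 15.7 CPM in the other controls. Ireb2 was 71.6 CPM in AAV8-AGXT mouse 309 and 60.5 to 62.1 CPM in the others of its group. Bmp6 was 1.75 CPM in AAV8-AGXT mouse 319 and 4.27 to 4.63 CPM in the others. Bmp2 was 13.9 CPM in AAV8-GFP mouse 303 and 7.67 to 8.69 CPM in the other controls. Hpx was 9843 CPM in AAV8-AGXT mouse 319 and 3422 to 3889 CPM in the others, so the AAV8-AGXT mean of 5252 CPM lies where no mouse of that group was measured.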

How the results depend on the processing

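Of 135 refits of the iron genes, 127 kept the direction and the side of the threshold, 6 turned the direction and 2 passed the threshold. Of 300 refits of other named genes, 236 kept both, 16 turned and 48 lost the call. DESeq2 called 1068 genes higher and 1033 lower over all genes, 1 iron gene higher, and 10 pathway genes higher and 2 lower. Total counts gave 144 higher and 857 lower over all genes, 1 iron gene lower, and 2 pathway genes higher (Cd163 and Cpox) and 2 lower (Steap3 and Slc22a17). With each mouse left out, 2 to 379 genes were called higher and 0 to 325 lower, with the fewest without mouse 311, 0 iron genes either way, and 0 to 4 pathway genes higher and 0 to 1 lower. Under total counts, log2 fold changes turned to -0.163 for Ftl1, -0.106 for Smad7, -0.028 for Bmp2, -0.063 for Aco1 and -0.066 for Hjv. With each mouse left out, they ranged from -0.175 to 0.044 for Tfrc, -0.077 to 0.037 for Fth1, -0.019 to 0.175 for Ftl1, -0.047 to 0.247 for Smad7, -0.015 to 0.447 for Bmp2, -0.387 to 0.082 for Bmp6, -0.217 to 0.141 for Id1, -0.553 to 0.087 for Hpx and -0.417 to 0.083 for Hp. The causes were not tested. No paired analysis was possible because the animal numbers differ between the groups. Depth did not limit the abundant genes, whereas Hamp2, Erfe and Il6 had too few counts to pass the low-count filter of the main test.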
